A study of Homo sapiens with 6 samples.

Results

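RNA from BicR and LNCaP cells under bicalutamide was compared, a pair of libraries out of 6 in the series, with 1 library for each line and no replicate of either. LNCaP is an established human prostate cancer line that responds to androgen. BicR is labelled as prostate cancer cells, and the labels do not say how it was derived or whether it is a single clone. Both lines were held for 3 days in phenol red-free RPMI with 2.5% serum stripped of steroids by charcoal and dextran, and then received 1 µM bicalutamide for 24 h. The other 4 libraries are the same lines given ethanol vehicle or 10 nM dihydrotestosterone (DHT) over the same time, and no group carries a labelled genetic change. Of 21512 genes in the table, 13885 reached a mean of 20 counts across the 6 libraries and were compared. At that limit, CCDC67 had a mean of 20 counts and was kept, and TMC1 had a mean of 19.8 and was left out.

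Bicalutamide is an antiandrogen, a drug that keeps androgens from activating their target genes. In prostate epithelium androgens induce genes for secreted kallikreins and for membrane proteins, and repress others, among them those of the UGT2B enzymes that inactivate androgens by glucuronidation. Cells can go on growing under such a drug by several routes, so lines are often compared under the drug itself.

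The bicalutamide libraries held 50871634 counts for LNCaP and 47185123 for BicR, with counts in 17022 and 16947 genes, and the other 4 libraries held 42162723 to 55917016. Markers of luminal prostate epithelium summed to 7994 CPM (counts scaled to the depth of the library) in LNCaP and 8238 CPM in BicR, and of 25 such markers NPY alone had 0 counts in both. Markers of immune cells summed to 22.96 and 19.86 CPM, and 5 of 14, among them PTPRC, CD3E, MS4A1 and NKG7, had 0 counts in both libraries. Markers of endothelial cells summed to 7.82 and 5.33 CPM, with CDH5 and CLDN5 at 0. Sums of basal markers (402.6 and 367.2 CPM) and of the neuroendocrine list (340.9 and 293.2 CPM) were also close between the lines. Of 29 genes on the neuroendocrine list 8 were compared, and 12 had at most 3 counts in both libraries. The list also holds REST, a repressor of neuronal genes, so its sum is not of markers alone. Among the mesenchymal markers, at 2315 and 1985 CPM, CDH2, ZEB2, TWIST2, COL1A2 and FAP had 0 counts in both. The check of the label thus found luminal markers in both lines at near-equal sums. A sum is carried by the most abundant genes and hides the members. Of 23 compared luminal markers 5 were at least 2-fold higher in BicR (21.7%, against 0.684% of all genes) and 0 lower.

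Levels were similar for most genes, and in bulk RNA a difference in every cell and one in some of the cells cannot be told apart. The difference was taken as log2(CPM + 1) of BicR minus LNCaP, a scale that understates the difference of low genes, and 12636 genes (91.0%) lay within 1.5-fold. At least 2-fold higher in BicR were 95 genes, 0.684% of those compared, and at least 2-fold lower were 176 genes, 1.27%. The higher genes were led by OAS2 at 3.81, TXNIP at 3.40, ARMCX1 at 3.25, RSAD2 at 3.17 and OASL at 3.09. The lower genes were led by OR51E1 at -3.95, BCHE at -3.19, UGT2B11 at -2.74, FAM65B at -2.73 and DOCK10 at -2.59. OAS2, RSAD2 and OASL belong to the interferon response, and with them IFIT1, IFI44L and IFI6 made up 6 of the 12 highest genes.

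**Figure D1:**
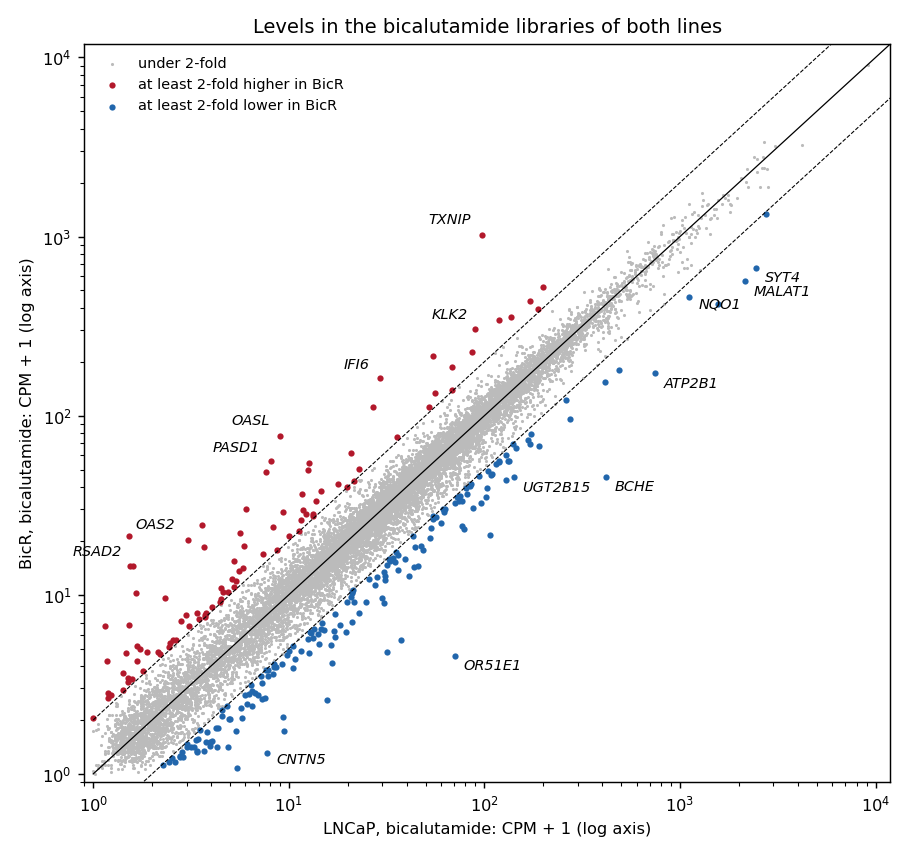
Level of each of the 13885 genes in the LNCaP (horizontal) and BicR (vertical) bicalutamide libraries, as CPM + 1 on log axes, with the line of equal level and dashed lines at 2-fold. The 95 genes at least 2-fold higher and the 176 at least 2-fold lower in BicR are coloured, and TXNIP, OAS2, OR51E1 and BCHE lie farthest from the line among the genes labelled.

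With 1 library on each side this pair has no test of its own. The ethanol pair and the DHT pair, which share no library with it, show whether a gene's direction was seen again. Of the 95 higher genes, 75 were also at least 2-fold higher in the ethanol pair and 49 in the DHT pair, where 2.62% and 2.81% of all genes were. These shared genes are 78.9% of the bicalutamide list and 20.6% of the longer ethanol list of 364. Of the 176 lower genes, 90 were at least 2-fold lower in the ethanol pair and 86 in the DHT pair, where 3.88% and 4.7% of all genes were. The 90 are 51.1% of the bicalutamide list and 16.7% of the 539 genes of the ethanol list. The sign was the same in all 3 pairs for 88 of the 95 and 163 of the 176. All 3 BicR libraries lay above all 3 LNCaP libraries in 77 of the 95 (81.1%), against 16.6% of all genes compared. They lay below in 154 of the 176 (87.5%), against 16.8% of all genes. Choosing genes by the bicalutamide pair favours such separation of the lines. Under DHT 7 of the higher and 12 of the lower genes had the opposite sign, and under ethanol 0 and 6 did.

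The line difference was then tested in the ethanol and DHT libraries alone, with edgeR's quasi-likelihood test on line plus treatment and Benjamini-Hochberg adjustment. The error of this fit is the disagreement between the ethanol pair and the DHT pair, which includes any difference of the lines in their response to DHT. With 4 libraries and 1 residual degree of freedom the test called 0 of 13885 genes (0%) at an adjusted p of 0.05. The smallest adjusted p was 0.0739. At an unadjusted p under 0.05 it had 1491 genes higher (10.7%) and 2110 lower (15.2%) in BicR. On the same libraries DESeq2 called 363 higher and 750 lower, and limma-trend called 0. Of the 95 genes chosen under bicalutamide 78 were higher at that unadjusted level, and of the 176 chosen as lower 135 were lower. A fit of all 6 libraries, which contains the bicalutamide pair, called 219 genes higher (1.58%) and 395 lower (2.84%). Adjusted p-values given below are those of the ethanol and DHT fit, and none passes 0.05.

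**Figure D2:**
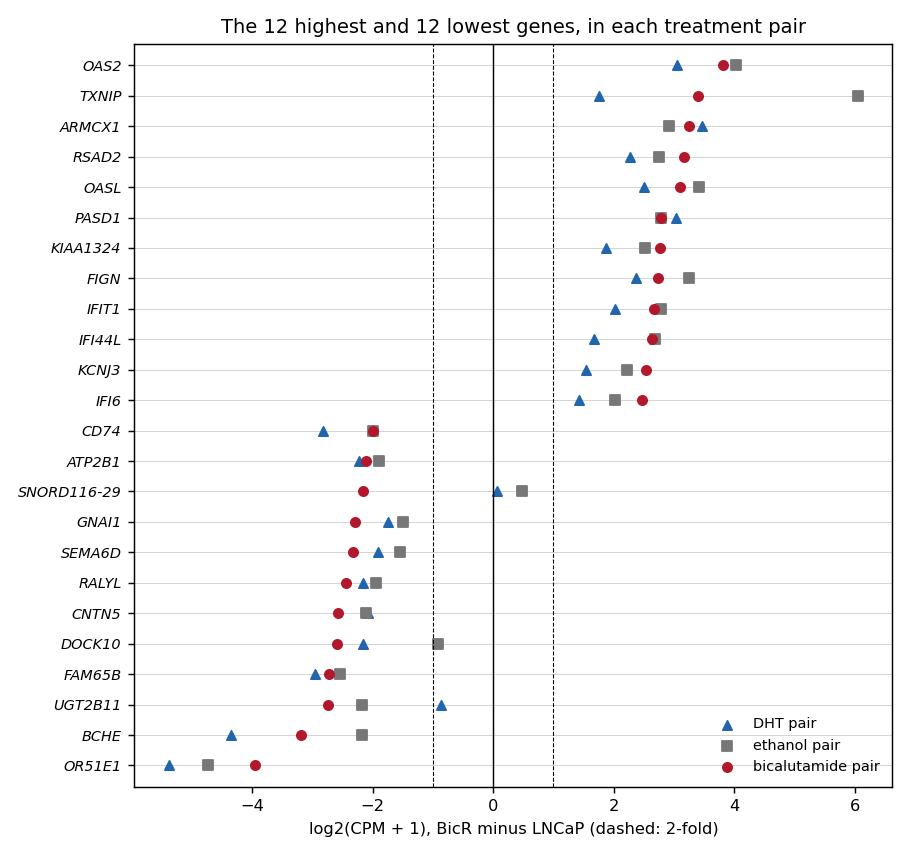
BicR minus LNCaP on the log2(CPM + 1) scale for the 12 highest and 12 lowest genes of the bicalutamide pair, with 1 symbol for each treatment pair and dashed lines at 2-fold. SNORD116-29 is at -2.16 under bicalutamide and at 0.48 and 0.07 in the other pairs, while the other 23 genes lie on the same side of 0 in all 3.

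Type I interferons signal through JAK1 and TYK2 to a complex that holds STAT2 and IRF9 and binds a short DNA element in front of antiviral genes. Promoters are shown here for 4 genes that were at least 2-fold higher in BicR and for 2 that were not, all holding the core of that element. Each is the 250 bases before the RefSeq start (GRCh38.p14), 5′ to 3′ on the gene's strand, and capitals mark GAAA, any 2 bases and GAAA, or on the other strand TTTC, any 2 bases and TTTC.
IFIT1: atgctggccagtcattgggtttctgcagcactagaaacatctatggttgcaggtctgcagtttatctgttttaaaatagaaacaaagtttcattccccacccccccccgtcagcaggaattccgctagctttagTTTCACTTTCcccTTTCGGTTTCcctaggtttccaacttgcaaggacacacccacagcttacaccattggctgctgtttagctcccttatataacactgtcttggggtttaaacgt
IFI6: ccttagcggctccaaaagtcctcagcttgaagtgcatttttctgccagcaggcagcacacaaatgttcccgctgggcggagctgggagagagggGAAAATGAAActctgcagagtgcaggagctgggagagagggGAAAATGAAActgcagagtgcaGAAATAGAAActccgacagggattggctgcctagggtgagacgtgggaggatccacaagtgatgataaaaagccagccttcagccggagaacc
IFI44L: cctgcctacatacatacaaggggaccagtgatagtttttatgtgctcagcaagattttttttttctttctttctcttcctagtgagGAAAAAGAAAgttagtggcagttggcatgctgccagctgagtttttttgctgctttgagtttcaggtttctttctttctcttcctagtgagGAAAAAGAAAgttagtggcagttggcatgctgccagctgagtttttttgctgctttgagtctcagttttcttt
OAS3: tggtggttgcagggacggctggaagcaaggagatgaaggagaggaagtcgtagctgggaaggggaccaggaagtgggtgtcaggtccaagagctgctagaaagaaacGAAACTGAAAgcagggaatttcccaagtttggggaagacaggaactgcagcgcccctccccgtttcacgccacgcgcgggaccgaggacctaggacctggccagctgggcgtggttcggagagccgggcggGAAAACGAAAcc
IFITM3: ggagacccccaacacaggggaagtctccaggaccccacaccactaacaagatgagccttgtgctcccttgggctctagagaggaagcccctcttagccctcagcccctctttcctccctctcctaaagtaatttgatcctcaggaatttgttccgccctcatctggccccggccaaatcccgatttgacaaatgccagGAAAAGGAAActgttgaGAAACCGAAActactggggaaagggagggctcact
HERC5: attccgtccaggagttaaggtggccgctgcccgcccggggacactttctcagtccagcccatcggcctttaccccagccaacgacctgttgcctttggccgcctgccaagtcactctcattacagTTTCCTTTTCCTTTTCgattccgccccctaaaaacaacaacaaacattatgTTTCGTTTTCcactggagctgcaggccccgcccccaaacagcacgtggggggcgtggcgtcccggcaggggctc
IFIT1 lies on plus at chr10:89392373-89392622, IFI6 on minus at chr1:27672193-27672442, IFI44L on plus at chr1:78620198-78620447, OAS3 on plus at chr12:112938224-112938473, IFITM3 on minus at chr11:320861-321110 and HERC5 on plus at chr4:88456869-88457118. The motif was searched on both strands and matches may overlap. It stood in front of 11 of 14 interferon response genes that were at least 2-fold higher and had an entry in the RefSeq table. It also stood in front of 10 of the 18 compared members that were not 2-fold higher. Among all genes compared 362 of 10773 held it (3.36%), and among all 35116 promoters given by RefSeq 1061 did (3.02%). A match is a description of these letters, not a shown binding site.

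Of the 43 interferon response genes 41 were compared, and 17 were at least 2-fold higher in BicR, 0 lower and 24 neither. The 17 are 41.5% of those compared, against 0.684% of all genes. Their median difference was 0.74, against 0.00 for all genes, and 36 of the 41 lay above 0. Of all 13885 genes compared 6883 lay above 0 and 7002 below. The members not compared, EPSTI1 and MX2, had 7 to 13 and 5 to 32 counts. The oligoadenylate synthetases, which sense double-stranded RNA and activate RNase L, were all in the group. OAS2 counts in LNCaP were 15 under ethanol, 53 under DHT and 27 under bicalutamide, and in BicR 1049, 642 and 998 in the same order. The bicalutamide ratio was 39.2, with an exact 95% counting interval of 26.8 to 59.9, and adjusted p was 0.075 by edgeR. Every BicR library was above every LNCaP library. OAS1 stood at 7.38, 7.13 and 5.04 CPM in LNCaP and at 27.2, 22.9 and 28.9 CPM in BicR. OAS3 had 1357 and 5455 counts under bicalutamide. OASL, a related protein that acts on the sensor RIG-I, stood at 8.05 and 76.3 CPM. The genes OAS1, OAS3 and OAS2 are next to each other among the compared genes in RefSeq (GRCh38.p14), and the nearest compared genes outside them, PTPN11 and RASAL1, differed by -0.25 and -0.20.

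The IFIT genes encode proteins that bind viral RNA and block its translation. IFIT1 stood at 5.86, 7.70 and 6.61 CPM in LNCaP under ethanol, DHT and bicalutamide and at 46.0, 34.5 and 47.2 CPM in BicR. Its bicalutamide ratio was 7.14 (95% counting interval 6.37 to 8.02), and the lines did not overlap in any treatment. IFIT3 (ratio 6.55) and IFIT2 (ratio 4.26) were also higher, while their neighbour IFIT5 stood at 0.11 on the log2 scale. RSAD2, which encodes the antiviral enzyme viperin, had 31 counts in LNCaP and 658 in BicR, a ratio of 22.5 (15.7 to 33.4). CMPK2, which neighbours RSAD2 and encodes a mitochondrial nucleotide kinase, was at 1.36. IFI6, a mitochondrial antiviral protein, had the highest level per length of the 6 interferon genes named above among the 12 highest. It had 22.7 RPKM (the authors' depth- and length-scaled unit) in LNCaP and 129.0 RPKM in BicR, against 2.45 and 17.6 RPKM for IFIT1.

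Other members differed less under DHT, or were near level between the lines. ISG15, a ubiquitin-like modifier, differed by 1.25 under bicalutamide, 1.06 under ethanol and 0.29 under DHT. IFITM1, which blocks viral entry at the membrane, stood at 10.8 and 28.6 CPM under bicalutamide and at 20.6 and 16.1 CPM under DHT, so the order of the lines was the opposite there. Its relatives IFITM2 and IFITM3 differed by -0.13 and 0.17 under bicalutamide. In the ethanol pair 17 members were at least 2-fold higher and 2 lower, and in the DHT pair 13 and 2, with medians of 0.72 and 0.57. In 12 members the difference reached 2-fold in all 3 pairs. At an unadjusted p under 0.05 in the ethanol and DHT fit 26 of the 41 were higher and 2 lower. Of all genes 10.7% were higher and 15.2% lower at that level.

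**Figure D3:**
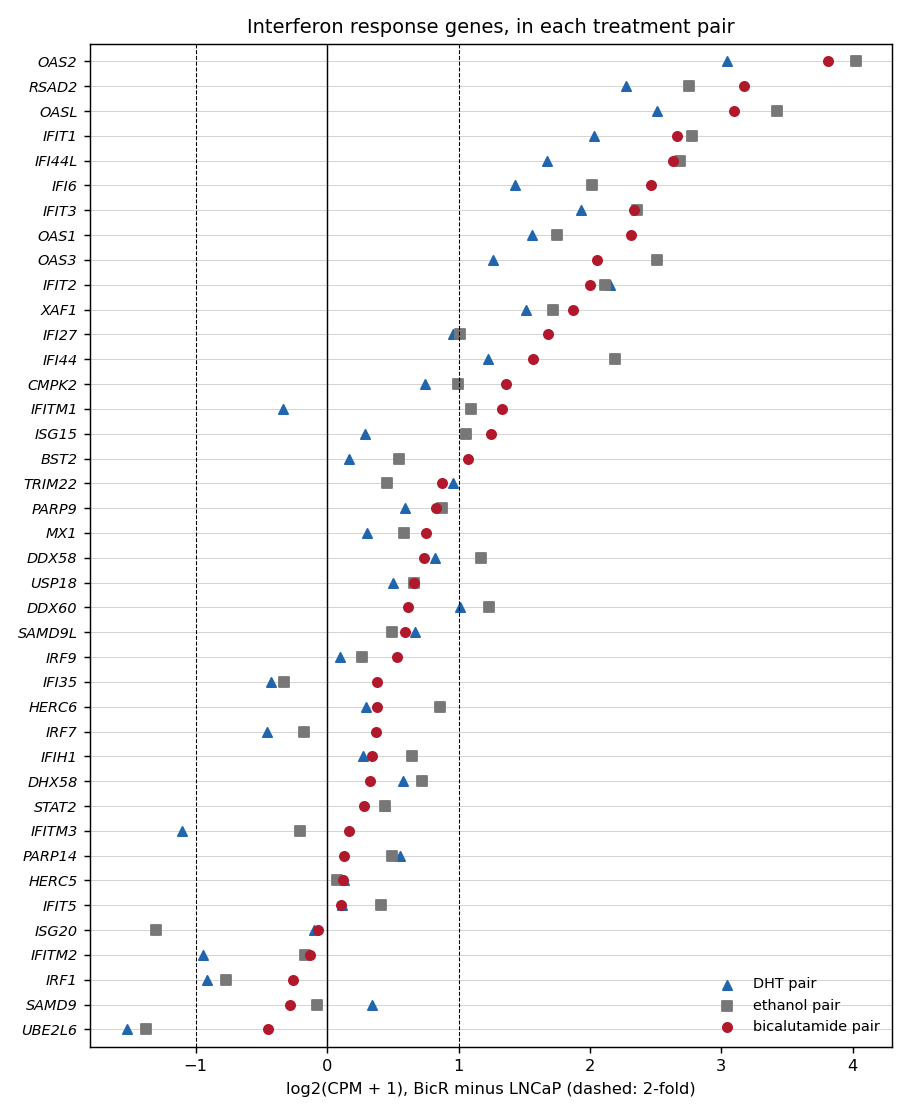
BicR minus LNCaP on the log2(CPM + 1) scale for compared interferon response genes, sorted by the bicalutamide pair, with 1 symbol for each treatment pair. From OAS2 at 3.81 down to BST2 at 1.07 the bicalutamide points lie beyond the dashed 2-fold line, and UBE2L6 at -0.45 is the lowest.

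The genes that start and carry the signal were taken from a list added after the values were seen. Of its 33 members 27 were compared, 0 were at least 2-fold higher and 1 was lower (3.70%, against 1.27% of all genes). The median was 0.07. The ligand IFNB1 had 4 counts in LNCaP and 6 in BicR, and IL29, an interferon of the lambda type, had 0 and 8, with 0 in all 3 LNCaP libraries and 2, 2 and 8 in BicR. STAT2 differed by 0.28 and IRF9 by 0.53. The receptor chains IFNAR1 and IFNAR2 differed by 0.07 and 0.13 and the kinase TYK2 by -0.01. JAK1 was the lower member: it stood at 25.2, 14.5 and 20.4 CPM in LNCaP under ethanol, DHT and bicalutamide and at 8.89, 11.6 and 9.68 CPM in BicR. All 3 BicR values were under all 3 LNCaP values. The RNA sensor gene DDX58, which encodes RIG-I, was at 0.74 and its adaptor MAVS at 0.16, while TMEM173, which encodes the DNA-sensing adaptor STING, was at -0.78.

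Antigen presentation genes did not share this direction. Of 26 compared, 0 were at least 2-fold higher and 2 were lower (7.69%, against 1.27% of all genes), with a median of -0.06. Peptides for T helper cells are loaded on class II molecules with the help of the invariant chain CD74. CD74 stood at 17.6, 19.7 and 15.6 CPM in LNCaP under ethanol, DHT and bicalutamide and at 3.67, 1.93 and 3.15 CPM in BicR, 4.95-fold lower under bicalutamide (95% counting interval 4.16 to 5.91). HLA-DRA was 2.59-fold lower and HLA-DPB1 2.07-fold lower by counts, and both had every BicR library under every LNCaP library. CIITA, the master regulator of class II genes, had 39 and 27 counts. Of class I, HLA-B differed by -0.13 and its light chain B2M by 0.12. CD274, the gene of the checkpoint ligand PD-L1, was higher, with 38 and 196 counts and a ratio of 5.48 (3.85 to 7.97).

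FOXA1, which opens chromatin for hormone receptors, and HOXB13, a homeobox factor of prostate, differed by 0.10 and -0.25. NR2F1, an orphan nuclear receptor, was lower at -1.20, and the glucocorticoid receptor gene NR3C1, with 19 and 8 counts, was below the limit for comparison.

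Androgen-induced genes split. Of the genes on the androgen-induced list 65 were compared: 5 exceeded 2-fold upward in BicR, 1 downward and 59 neither, and the median was 0.01. That is 7.69% upward and 1.54% downward, against 0.684% and 1.27% of all genes. KLK2, a kallikrein protease gene, stood at 88.2 CPM in LNCaP and 302.1 CPM in BicR, a ratio of 3.42 (3.31 to 3.54). SLC45A3, a membrane transporter also called prostein, stood at 85.0 and 225 CPM. GREB1, a hormone-responsive coactivator, differed by 1.22 and KLK15 by 1.00. TARP, a luminal marker made in prostate from within a T cell receptor locus, so that reads of the locus may be shared, had 35 and 204 counts. In each of these the BicR library was above the LNCaP library in all 3 treatments. In contrast KLK3, which encodes prostate-specific antigen and neighbours KLK2 and KLK15, was lower in BicR: it stood at 1402, 5257 and 979 CPM in LNCaP under ethanol, DHT and bicalutamide and at 672, 2600 and 630 CPM in BicR. TMPRSS2, a membrane protease gene, was at 92.9 and 95.1 CPM, a ratio of 1.02 (0.983 to 1.07). FKBP5, a cochaperone gene, was at 56.6 and 54.2 CPM. The lower member was FAM65B, an inhibitor of small GTPase signalling, with 1604 and 186 counts, 8.12-fold lower (6.97 to 9.51).

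Under DHT many of the same targets differed more. The median of the androgen-induced list was 1.24 in the DHT pair and 0.17 in the ethanol pair. FKBP5 differed by -0.06 under bicalutamide, 0.39 under ethanol and 2.42 under DHT, TMPRSS2 by 0.03, 0.19 and 1.06, and NDRG1, a stress and differentiation gene, by 0.35, -0.41 and 2.07. TARP, KLK2, SLC45A3, GREB1 and KLK15 exceeded 2-fold in each of the 3 pairs. Whether the difference itself varied with treatment was not tested, since each line and treatment had 1 library.

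**Figure D4:**
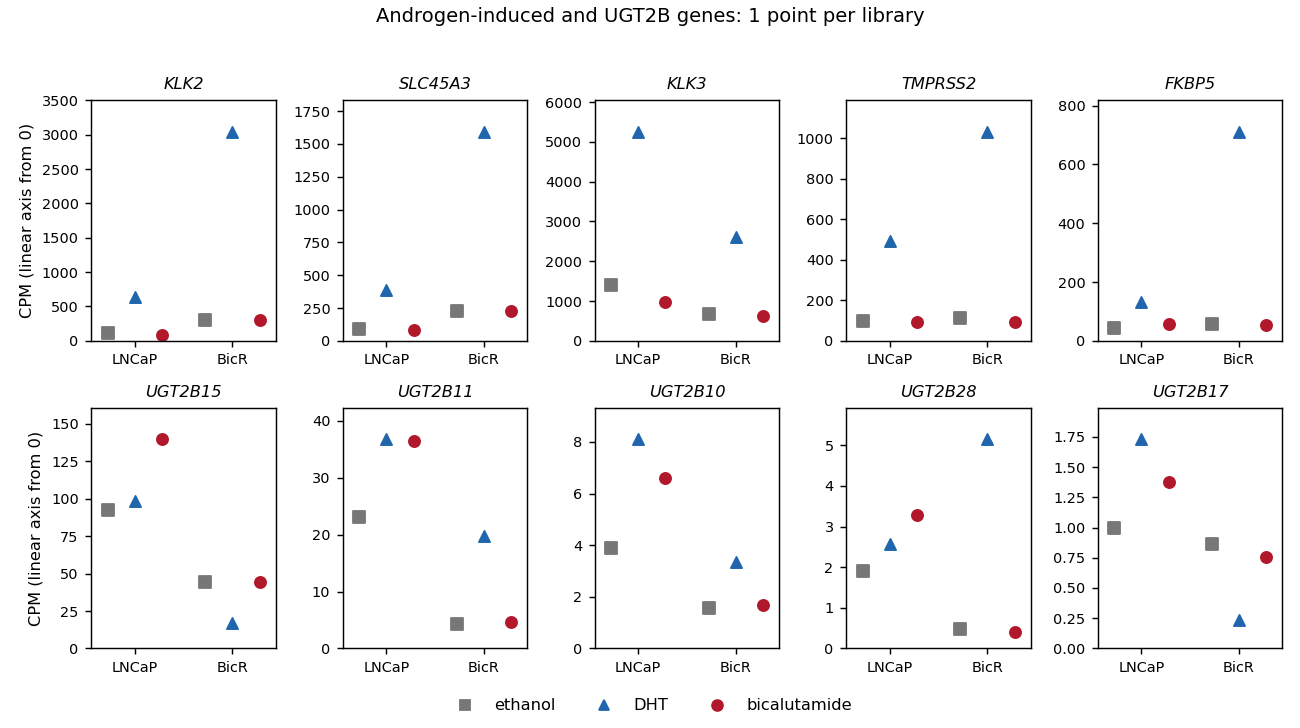
CPM on linear axes from 0 for 5 androgen-induced genes and 5 UGT2B genes, with 1 point for each of the 6 libraries, so no error can be drawn. Under bicalutamide KLK2 is at 88.2 CPM in LNCaP and 302.1 CPM in BicR while FKBP5 is at 56.6 and 54.2 CPM, and UGT2B15 is at 140 and 44.2 CPM.

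Androgen-repressed genes differed in both directions: of 33 compared, 3 were at least 2-fold higher (LRRN1 and MET among them) and 5 lower. That is 9.09% and 15.2%, against 0.684% and 1.27% of all genes, and the median was -0.03. BCHE, which encodes butyrylcholinesterase, a serum-type esterase, stood at 236, 250 and 416 CPM in LNCaP under ethanol, DHT and bicalutamide and at 51.6, 11.2 and 44.6 CPM in BicR. It was 9.33-fold lower under bicalutamide (8.92 to 9.75). SYT4, a synaptotagmin of secretory vesicles, stood at 2443 CPM in LNCaP and 668 CPM in BicR, and was lower in BicR in every treatment. OPRK1, the kappa opioid receptor gene, differed by -0.62.

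Genes of the UGT2B family, which includes enzymes that glucuronidate androgens, were lower under bicalutamide. Among UGT2B genes, a family list added after the values were seen, 4 of 6 compared were at least 2-fold lower in BicR and 0 higher. Of all genes 1.27% were at least 2-fold lower. The family's median was -1.56. UGT2B15, which conjugates DHT and its metabolites, stood at 92.8, 98.4 and 140 CPM in LNCaP under ethanol, DHT and bicalutamide and at 44.4, 17.1 and 44.2 CPM in BicR. Its ratio of LNCaP to BicR was 3.16 (3.01 to 3.32), and every BicR value was under every LNCaP value. UGT2B11 was 7.90-fold lower (6.88 to 9.11), UGT2B28 8.05-fold (5.05 to 13.5) and UGT2B10 3.95-fold (3.10 to 5.09). UGT2B17 had 72 and 37 counts and UGT2B4 had 71 and 21, and UGT2B7 was too low to compare. UGT2B17 differed by -0.44 under bicalutamide, -0.10 under ethanol and -1.14 under DHT. Under DHT UGT2B28 had 140 counts in LNCaP and 216 in BicR, the opposite order. The members are near-identical in sequence, so the authors' counting may have split reads between them. SRD5A1, a steroid 5-alpha-reductase, differed by 0.18 under bicalutamide, -0.36 under ethanol and -0.58 under DHT. AKR1C3, which makes testosterone from androstenedione, differed by -0.01, 0.25 and -0.48 in the same order. In the list of steroid synthesis and conversion 16 of 26 compared genes were below 0 under bicalutamide and 10 above, with a median of -0.16. Of all 13885 genes 7002 were below 0.

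The lowest gene was OR51E1, an odorant receptor gene active in prostate. It stood at 111, 72.6 and 69.6 CPM in LNCaP under ethanol, DHT and bicalutamide and at 3.23, 0.763 and 3.58 CPM in BicR, 19.4-fold lower under bicalutamide (16.7 to 22.7). Its neighbour OR51E2, a prostate marker also known as PSGR, had 202 and 20 counts. The next compared gene on the OR51E1 side, TRIM68, was at -0.83, and those beyond, TRIM21 and RRM1, were at 0.06 and 0.08. Other genes among the lowest were ATP2B1, a plasma membrane calcium pump at 745 and 172 CPM, and GNAI1, an inhibitory G protein subunit at 106 and 20.7 CPM. RALYL, an RNA-binding protein gene, had 440 and 36 counts, and DOCK10, an exchange factor for small GTPases, had 763 and 78. All 4 were lower in BicR in each treatment.

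The gene with the second highest difference was TXNIP, which binds thioredoxin and restrains glucose uptake. It stood at 12.9, 261 and 95.8 CPM in LNCaP under ethanol, DHT and bicalutamide and at 922, 881 and 1018 CPM in BicR. The 3 LNCaP libraries differed widely from each other and the 3 BicR libraries did not, and the ratio varied with treatment: 10.6 under bicalutamide (10.3 to 10.9), with log2 differences of 6.05 under ethanol and 1.75 under DHT. ARRDC4, its paralog, was at 7.34 and 22.9 CPM. MLXIP and MLXIPL, the glucose-sensing factors that induce TXNIP, were at 0.05 and -0.60. TXNIP and ARRDC4 were the 2 of 39 compared glycolysis and hypoxia genes that reached 2-fold (5.13%, against 0.684% of all genes). In that list 0 were lower, and its median was -0.11.

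Among the other highest genes, ARMCX1 and PASD1 lie on the X chromosome by RefSeq. The VCX genes also lie there but differed less. Whether genes of this chromosome were more frequent among the higher genes than among all genes compared was not tested. ARMCX1, a mitochondrial membrane protein gene, had 28 counts in LNCaP and 667 in BicR, a ratio of 25.3 (17.3 to 38.4). Its 10 nearest compared neighbours lay between -0.41 and 0.41. PASD1, a testis antigen that inhibits the circadian clock, stood at 6.72, 5.40 and 7.11 CPM in LNCaP under ethanol, DHT and bicalutamide and at 52.1, 51.4 and 55.0 CPM in BicR, a ratio of 7.73 (6.93 to 8.64). Of the VCX genes, testis-specific and added after values were seen, VCX, VCX3A and VCX3B exceeded 2-fold (ratios 3.31, 3.06 and 3.62) and VCX2 was at 0.84. These 4 copies are near-identical, so their separate values are uncertain. Of the genes between them HDHD1A was at 0.20 and PNPLA4 at -0.10. STS, also between them, was higher in BicR in each pair, at 0.63 under bicalutamide, 0.88 under ethanol and 1.24 under DHT. VCX2 was at 0.42 under ethanol and 0.13 under DHT. In the list of cancer-testis antigens 2 of 18 compared were at least 2-fold higher (PASD1 and PAGE1), or 11.1%, against 0.684% of all genes. MAGEA4 was lower, at 13.3 and 4.29 CPM.

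KCNJ3, a potassium channel gene, had 8 and 280 counts, a ratio of 37.2 (18.6 to 86.9). KIAA1324, a membrane glycoprotein gene known to respond to estrogen, had 136 and 1154 counts. FIGN, which encodes a microtubule-severing ATPase, had 108 and 951. All 3 were at least 2-fold higher in each treatment pair. ACTL8, an actin-like testis gene chosen after its value was seen, had 0 counts in LNCaP, which allows up to 0.0575 CPM, and 52 in BicR, 1.06 CPM.

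Some genes of neurons and of the matrix were lower. Of 45 compared genes of synapse and neuronal guidance 7 were at least 2-fold lower (15.6%, against 1.27% of all genes), 0 higher and 38 neither. The list's median was 0.04. CNTN5, a neuronal adhesion gene, had 353 counts in LNCaP and 15 in BicR, 22.2-fold lower (13.3 to 40.0). SEMA6D, a guidance ligand gene, had 230 and 4 counts, 54.2-fold lower (20.9 to 200.5). NRP1, the neuropilin that binds semaphorins and VEGF, was at 190 and 66.8 CPM. SLITRK5, SLITRK6, UNC5A and SYT4 complete the 7. Of 41 integrin and extracellular matrix genes 4 were at least 2-fold lower (LAMB1, ITGA11, COL5A1 and COL7A1) and 0 higher. The 4 are 9.76%, against 1.27% of all genes, and the list's median was -0.25. Of 14 compared mesenchymal markers 10 lay below 0 under bicalutamide, against 7002 of all 13885 genes. Their medians were -0.17 under bicalutamide, -0.37 under ethanol and -0.74 under DHT. Against that direction VIM, the vimentin gene, was 2-fold higher under bicalutamide at 21.9 and 49.2 CPM, and differed by 0.73 under ethanol and 0.18 under DHT.

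Growth factor genes differed in both directions. Of 51 compared receptor tyrosine kinases and ligands, 4 were beyond 2-fold upward (7.84%) and 2 downward (3.92%), and the median was -0.11. Of all genes 0.684% and 1.27% were. The ephrin ligand gene EFNA5 stood at 135 CPM in LNCaP and 355 CPM in BicR, EPHB6, a kinase-dead ephrin receptor, had 35 and 160 counts, and MET, the hepatocyte growth factor receptor, had 189 and 459. EGF, the epidermal growth factor gene, stood at 34.6, 16.9 and 28.9 CPM in LNCaP under ethanol, DHT and bicalutamide and at 8.02, 7.01 and 8.65 CPM in BicR. The lines did not overlap in EGF. MET and EPHB6 were nearer under DHT, at -0.01 and 0.41. Of 35 genes of MAPK feedback and immediate early response 4 were at least 2-fold lower (11.4%, against 1.27% of all genes), 0 higher and 31 neither. The feedback inhibitors SPRY1 and DUSP4 differed by -1.26 and -1.19, and the ETS factors ETV1 and ETV4 by -1.10 and -1.01. None of the 4 reached 2-fold in all 3 pairs. SPRY1 was at -0.59 under ethanol and -1.65 under DHT, DUSP4 at -0.90 and -0.94, and ETV4 at -0.75 and -1.66. ETV1 was nearest to level there, at -0.35 and -0.32. IGF1R, the insulin-like growth factor receptor gene, stood at 52.2 and 25.6 CPM under bicalutamide and at 52.0 and 159 CPM under DHT.

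Most antioxidant genes were slightly lower. Of 36 compared glutathione and NRF2 genes 2 were at least 2-fold lower (5.56%, against 1.27% of all genes), 0 higher and 34 neither. Above 0 lay 10 of the 36, against 6883 of all 13885 genes, and the median was -0.36. NQO1, a quinone reductase and textbook NRF2 target, stood at 832, 909 and 1116 CPM in LNCaP under ethanol, DHT and bicalutamide and at 454, 402 and 457 CPM in BicR. ALDH3A1, an aldehyde dehydrogenase, had 118 and 20 counts, GCLM, a subunit of the glutathione synthesis enzyme, differed by -0.96 and the heme oxygenase gene HMOX1 by -0.80. NFE2L2, which encodes NRF2, was at 0.03 and its inhibitor KEAP1 at 0.23. In the ethanol and DHT fit 18 of the 36 were lower and 0 higher at an unadjusted p under 0.05, against 15.2% and 10.7% of all genes.

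Many cell cycle genes were slightly higher under bicalutamide, by amounts that varied with treatment. Of 41 mitosis genes 36 were above 0, with a median of 0.61, and 3 reached 2-fold (FOXM1, CENPA and CDCA3). Of all 13885 genes 6883 were above 0 and 0.684% were at least 2-fold higher. FOXM1, the transcription factor of mitotic genes, stood at 17.0, 63.4 and 51.0 CPM in LNCaP under ethanol, DHT and bicalutamide and at 117, 120 and 110 CPM in BicR. The 3 BicR libraries were close together, and LNCaP ethanol was far below its other 2 libraries. The list's median was 2.16 in the ethanol pair and 0.64 in the DHT pair. Of 45 DNA replication genes 40 were above 0, with a median of 0.34, and RRM2, a subunit of ribonucleotide reductase, reached 2-fold at 1.20. The median of these replication genes was 0.66 in the ethanol pair and 0.04 in the DHT pair, where 25 were above 0, 20 below and 0 at 2-fold. CDKN1A, the p21 inhibitor gene, was at 388 and 229 CPM. MYC and CCND1 each differed by 0.30 under bicalutamide, and by -0.19 and -0.09 under DHT.

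Some lower values went with the LNCaP bicalutamide library. Of the 176 lower genes 62 reached 2-fold in no other pair, and in 59 of these (95.2%) the LNCaP bicalutamide library was the highest of the 6, against 16.9% of all genes. Choosing genes by this pair favours that count. MALAT1, a nuclear noncoding RNA, stood at 569, 1231 and 2142 CPM in LNCaP under ethanol, DHT and bicalutamide and at 488, 730 and 561 CPM in BicR. NEAT1, which builds nuclear paraspeckles, was at 501 CPM in that library and at 272 to 453 CPM in the others. PAR5, a noncoding transcript of the imprinted Prader-Willi region, had 1551 counts there and 366 to 725 elsewhere, and SNORD116-29 had 434 against 23 to 57. Of 54 small nucleolar and Cajal body RNAs compared, 3 were at least 2-fold lower (5.56%, against 1.27% of all genes) and 0 higher, with a median of -0.10. Reads of those inside host genes may come from the host.

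The 62 genes were also low in GC. The longest GENCODE transcript of each had a median GC content of 37.4% (57 of the 62 matched), against 48.8% for all genes compared (11988 of 13885 matched) and 46.9% for the 95 higher genes. Examples, chosen after their values were seen, are ATRX, a chromatin remodeller at 165 and 72.0 CPM, and ZNF91, a zinc finger repressor at 140 and 68.8 CPM. Across genes the difference had a Spearman correlation of 0.16 with GC content in this pair, -0.31 in the ethanol pair and -0.45 in the DHT pair. With gene length, taken from the ratio of counts to RPKM, it was -0.05, 0.22 and 0.36 in the same order. After a smooth GC trend was removed, 97 genes were at least 2-fold higher and 113 lower among the genes with a GC value. Of the 176 lower genes 162 had a GC value, and 106 of these still reached 2-fold. Of the 57 matched genes of the bicalutamide pair only, 17 still reached 2-fold, and of the 89 matched higher genes 85 did.

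**Figure D5:**
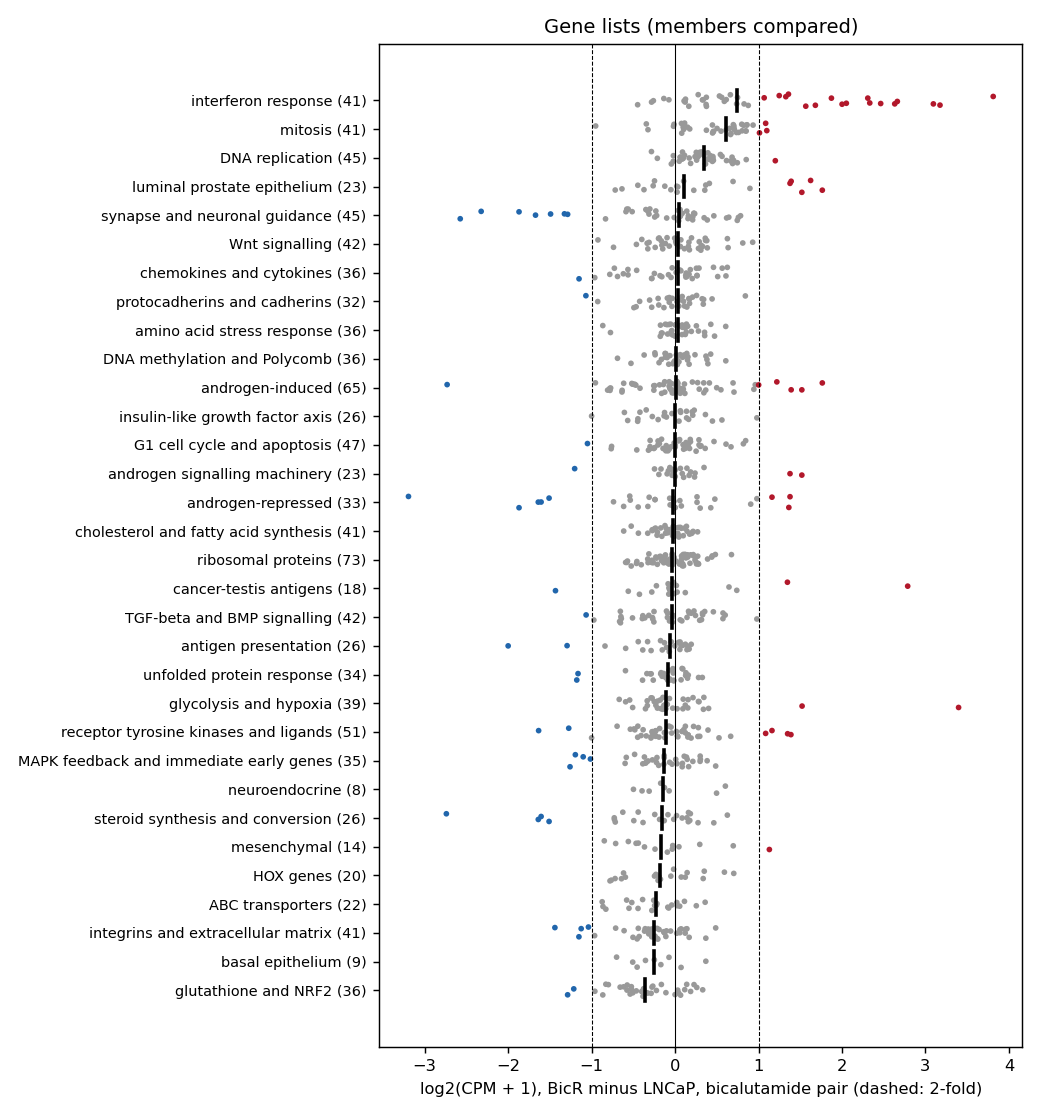
BicR minus LNCaP under bicalutamide on the log2(CPM + 1) scale, with 1 point for each compared gene of 32 lists, a black bar at each list's median, and dashed lines at 2-fold. The interferon response is at the top with a median of 0.74 and 17 points beyond 2-fold, and the glutathione and NRF2 genes are at the bottom with a median of -0.36.

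Several lists had no gene beyond 2-fold. These included the 73 ribosomal protein genes (median -0.03), 41 of cholesterol and fatty acid synthesis (-0.03), 42 of Wnt signalling (0.04), 36 of DNA methylation and Polycomb (0.01), 36 of the amino acid stress response (0.03), 20 HOX genes (-0.18) and 22 ABC transporters (-0.23). TET2, an enzyme that oxidises methylcytosine, stood at 56.1 and 56.0 CPM under bicalutamide and at 22.7 and 44.4 CPM under DHT. BCL2 differed by -0.30 and ERBB3 by -0.18. The unfolded protein response list had 2 of 34 genes lower under bicalutamide (CREB3L1 and AGR2), or 5.88%, against 1.27% of all genes. Its median was -0.08, against -1.26 in the ethanol pair. HSD17B3, which makes testosterone from androstenedione, had 3 and 6 counts under bicalutamide, too few to order the lines.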

How the data were processed

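The members and gene lists of this comparison were chosen with earlier results of these data known. Per the labels' protocols, RNA was extracted with ISOGEN and read on an Applied Biosystems SOLiD 3 Plus instrument. The authors deposited raw counts per gene symbol and, beside them, RPKM, per the file headers. Per the submitters' processing notes the build is hg19; the aligner, the counter, the annotation and any use of strand were not given in the sources used here. Of 21512 rows, 2988 were at 0 throughout, and 27 with date-like names are not named here.

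Libraries were scaled by TMM (edgeR 4.0.16, R 4.3.3), a mean count of 20 or more was required, and differences were taken as log2(CPM + 1). Ratios carry exact 95% intervals conditional on the summed count. Intervals cover counting error only, since each side has 1 library. Reads without molecular identifiers are not all independent molecules, so the intervals may be too narrow even for that error. The line difference was tested with edgeR's quasi-likelihood test, 2-sided, on line plus treatment in the ethanol and DHT libraries with Benjamini-Hochberg adjustment. The test was also run on simulated data that had no treatment effect and the same line difference in each treatment. That run does not show how the test behaves where the line difference varies with treatment. DESeq2 1.42.0 and limma 3.58.1 were alternatives. Nothing in the labels says that libraries came from separate cultures. The error in the ethanol and DHT fit is the disagreement between those pairs. It mixes any difference of the lines in their response to DHT with spread that may be technical. The p-values therefore do not measure a spread among replicates. GC content came from the longest GENCODE version 29 transcript of a symbol, and promoters from RefSeq (GRCh38.p14), 32 of 41 interferon response genes matched. Named were the 12 highest and 12 lowest differences, the 3 largest in size of each list with at least 5 compared genes and a set of fixed genes; not all are reported, and others are named as examples chosen after their values were seen. Some genes are not reported here.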

Additional observations from a re-analysis of the deposited data

Results flagged for a closer look

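A gene was singled out when it was at least 2-fold different under bicalutamide and at least 1.5-fold different the other way in another treatment pair. With 1 library for each line and treatment the change of direction was not tested. UGT2B28 differed by -1.60 under bicalutamide and 0.78 under DHT, with 171 and 20 counts in LNCaP and BicR under bicalutamide and 140 and 216 under DHT. HCG11, a noncoding RNA gene of the HLA region, differed by -1.03 under bicalutamide and 1.24 under DHT, with 4390 and 1997 counts under bicalutamide. SNORD41 differed by -1.08 under bicalutamide and 1.54 under ethanol, and had 626 counts in the LNCaP bicalutamide library against 112 to 437 in the others. SNORD79 differed by -1.25 under bicalutamide and 0.59 under ethanol, with 170 counts in that library against 20 to 58 in the others.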

How the results depend on the processing

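The 95 higher and 176 lower genes of the bicalutamide pair became 228 and 384 with a pseudocount of 0.1, 42 and 72 with a pseudocount of 5, and 52 and 70 on RPKM. With a GC trend removed, an alternative chosen after seeing the data, they were 97 and 113, counted among genes with a GC value only. Of the 95 higher genes 89 had such a value and 85 of these stayed at 2-fold. Of the 176 lower genes 162 had one and 106 stayed. In the ethanol libraries the counts were 364 and 539, and in the DHT libraries 390 and 652. The test called 0 genes either way. It called 136 higher and 374 lower without the filter on low counts, 219 and 395 with all 6 libraries, 223 and 294 with ethanol and bicalutamide, 229 and 459 with DHT and bicalutamide, and 363 and 750 with DESeq2. Leaving out 1 library from the fit of all 6 gave 0 to 225 higher and 0 to 470 lower, with 0 without either bicalutamide library. Each such fit leaves 1 library alone in its treatment, where the treatment term fits it exactly. The lone library then carries no information on the line difference, so these fits largely repeat those of the remaining treatments above. They cannot show how far the calls rest on 1 library. The 12 highest, 12 lowest and 6 fixed genes at 2-fold, 30 in all, kept their sign under 8 other settings of scaling, pseudocount, filter and length, and 27 kept 2-fold. Among these 30, SNORD116-29 was reversed in the ethanol (0.48) and DHT pair (0.0662), and UGT2B28 in the DHT pair (0.78). The other genes named at 2-fold were not recomputed under these 8 settings. Of them, IFITM1 (-0.34), LRRN1 (-0.13) and MET (-0.01) had the opposite sign under DHT, and HCG11 (0.015 and 1.24), SNORD41 (1.54 and 0.43) and SNORD79 (0.59 and 0.19) under ethanol and DHT. Of the interferon response genes 17 reached 2-fold, against 19 with a pseudocount of 0.1, 13 with a pseudocount of 5 and 13 on RPKM. On the mean of the ethanol and bicalutamide pairs, also chosen after seeing the data, 16 did. The fits had treatment as a term, which pairs the lines within a treatment; the labels give no replicate numbers to pair by.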
